A study of Mus musculus with 16 samples.

Results

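Surface ectoderm is the sheet of embryonic ectoderm that does not become neural tissue and from which the epidermis grows, and a small set of transcription factors is known to specify it. Bone morphogenetic protein (BMP) signalling is the classical cue that directs ectoderm away from neural fate, and the factors then act in layers, with the AP-2 family, GATA2, GATA3 and the distal-less homeobox genes DLX3 and DLX5 early, p63 as the master regulator of stratified epithelium, and GRHL2 and OVOL1 maintaining epithelial identity. The 10 genes examined here were the p63 gene TRP63, the AP-2 genes TCFAP2A, TCFAP2B and TCFAP2C (now Tfap2a, Tfap2b and Tfap2c), GATA2, GATA3, DLX3, DLX5, OVOL1 and GRHL2, named by their symbols on the array. They were taken as every probe whose target name equals one of these symbols, which gave 22 probes for 10 of the 30854 target names on the array. Their expression was followed in 16 cultures.

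Murine embryonic stem (ES) cells of a single τ-EGFP knock-in line had been cultured in serum-free medium on a monolayer of PA6, a stromal cell line (ES/PA6 co-cultures). PA6 cells had also been cultured alone in the same medium (PA6 mono-cultures). RNA was taken at day 7 from cultures without growth factors (-GFs), with FGF2 at 20 ng/ml or with BMP4 at 10 ng/ml, the dose in the labels, while the methods give a lower BMP4 dose. Per the methods, the factors were added at the onset of culture and withdrawn after 3 days. The co-cultures gave 2 -GFs arrays, 3 FGF2 arrays and 2 BMP4 arrays, the PA6 mono-cultures 3 arrays of each kind, and the labels call replicates biological, with 1 well per condition. Each co-culture array therefore measured ES-derived and stromal RNA together, and in such bulk samples fewer cells of a type and less RNA per cell cannot be told apart.

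Levels are given as log2 of the background-corrected and quantile-normalised bead intensity. A probe was detected on an array when its detection p-value, the rank of its signal among the negative control beads, was under 0.05, and a gene was tested when a probe was detected on every array of at least 1 group. The lowest level of a detected probe was 6.25 to 6.96 on the 16 arrays, and an undetected level near 5.5 is background. Changes are log2 fold changes with the standard error (SE) of the limma fit, and a call required an adjusted p (Benjamini-Hochberg over all 14829 genes tested) under 0.1 together with a log2 fold change above 1 or below -1. Where a group was undetected on all its arrays the fold is given as a bound against the detection level, written as at least so many fold. Of the 10 genes, 8 were tested. DLX5 (2 probes) and OVOL1 (1 probe) were undetected on all 16 arrays, with levels of 5.44 to 6.42 and 5.38 to 6.60.

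The arrays detected 37.3 to 47.0% of probes, and arrays of 1 group correlated at 0.973 to 0.986 across genes. The labelled cultures were checked with marker lists. Of 13 stromal markers, 12 or 13 were detected on every array, with a summed level of 249000 to 325000 in PA6 mono-cultures and 84400 to 109000 in co-cultures. Of 12 pluripotency markers, 11 or 12 were detected on each co-culture array and 3 to 6 on each PA6 array. As 2 or 3 arrays stood for each group, their number limits the precision of every value.

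RefSeq promoters (assembly GRCm38.p6) were at hand for 4 of the 10 genes. The 250 bases upstream of a start site are shown for GATA3, which was called with BMP4, and for TCFAP2A and TCFAP2B, the pair with the most similar profiles over the 16 arrays. Capitals mark, on either strand, the AP-2 motif GCCNNNGGC, the SMAD-type motif GGCGCC and the homeobox motif TAATTA, and the sequences are written 5′ to 3′ on the strand of the gene.
Gata3 (chr2:9878601-9878850, minus strand): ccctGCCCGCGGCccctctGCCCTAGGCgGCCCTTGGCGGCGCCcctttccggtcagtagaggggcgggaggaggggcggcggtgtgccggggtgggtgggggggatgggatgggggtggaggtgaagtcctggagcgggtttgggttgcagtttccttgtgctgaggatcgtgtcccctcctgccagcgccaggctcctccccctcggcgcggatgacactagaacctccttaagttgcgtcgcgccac
Tfap2a (chr13:40734921-40735170, minus strand): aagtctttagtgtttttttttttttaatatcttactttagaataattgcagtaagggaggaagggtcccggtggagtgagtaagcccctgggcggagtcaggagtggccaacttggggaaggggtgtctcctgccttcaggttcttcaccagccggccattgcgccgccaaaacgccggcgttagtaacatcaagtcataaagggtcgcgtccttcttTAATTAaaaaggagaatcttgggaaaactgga
Tfap2b (chr1:19211804-19212053, plus strand): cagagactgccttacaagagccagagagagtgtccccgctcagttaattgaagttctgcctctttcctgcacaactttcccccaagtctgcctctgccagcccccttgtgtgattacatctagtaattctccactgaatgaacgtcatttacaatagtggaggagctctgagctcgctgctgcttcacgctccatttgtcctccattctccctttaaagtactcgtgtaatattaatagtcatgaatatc

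The Gata3 sequence held 3 matches to the AP-2 motif and 1 to GGCGCC, the latter directly after the third AP-2 match and not overlapping it. Of 32851 promoter windows of the same length in the table, 13.7% held the AP-2 motif, 9.59% GGCGCC and 4.84% TAATTA. The Tfap2a sequence held 1 match to TAATTA, and the Tfap2b sequence none to these motifs. None of the 3 held the GATA motif AGATAA (9.99% of windows), the grainyhead motif AACCGG (5.62%), TATAAA (12.4%) or the p53-family motif (0.49%). A second Tfap2a promoter (chr13:40733796-40734045, minus strand), not shown, held no match to any of these motifs, TAATTA included. A match is a run of letters and not a measured site, and these arrays carry no measurement of binding.

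TRP63 showed the largest response. Its product p63 is required for the epidermis and other stratified epithelia. In co-cultures its probe (ILMN_1216742) read 10.95 and 10.81 on the BMP4 arrays. Without growth factors it read 6.07 and 5.70 and was undetected on both arrays, and with FGF2 it read 6.71, 5.75 and 6.63, the second of these undetected. Both BMP4 cultures thus stood far above all other co-cultures, with no overlap. Against -GFs, where the probe was not above background, the rise was at least 20.3-fold (adjusted p = 0.00251, limma). Against FGF2 it was 4.51 ± 0.31 (adjusted p = 0.00292), a fitted value, as the FGF2 mean of 6.37 lay near the detection level. FGF2 against -GFs was not called (adjusted p = 0.417), and no fold is given between these dim levels. A second TRP63 probe, ILMN_2576403, was undetected on all 16 arrays, with group means of 5.46 to 5.67, so the response rests on 1 probe.

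The co-culture levels by array are set beside those of PA6 cells in the plot of all tested genes.

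**Figure D1:**
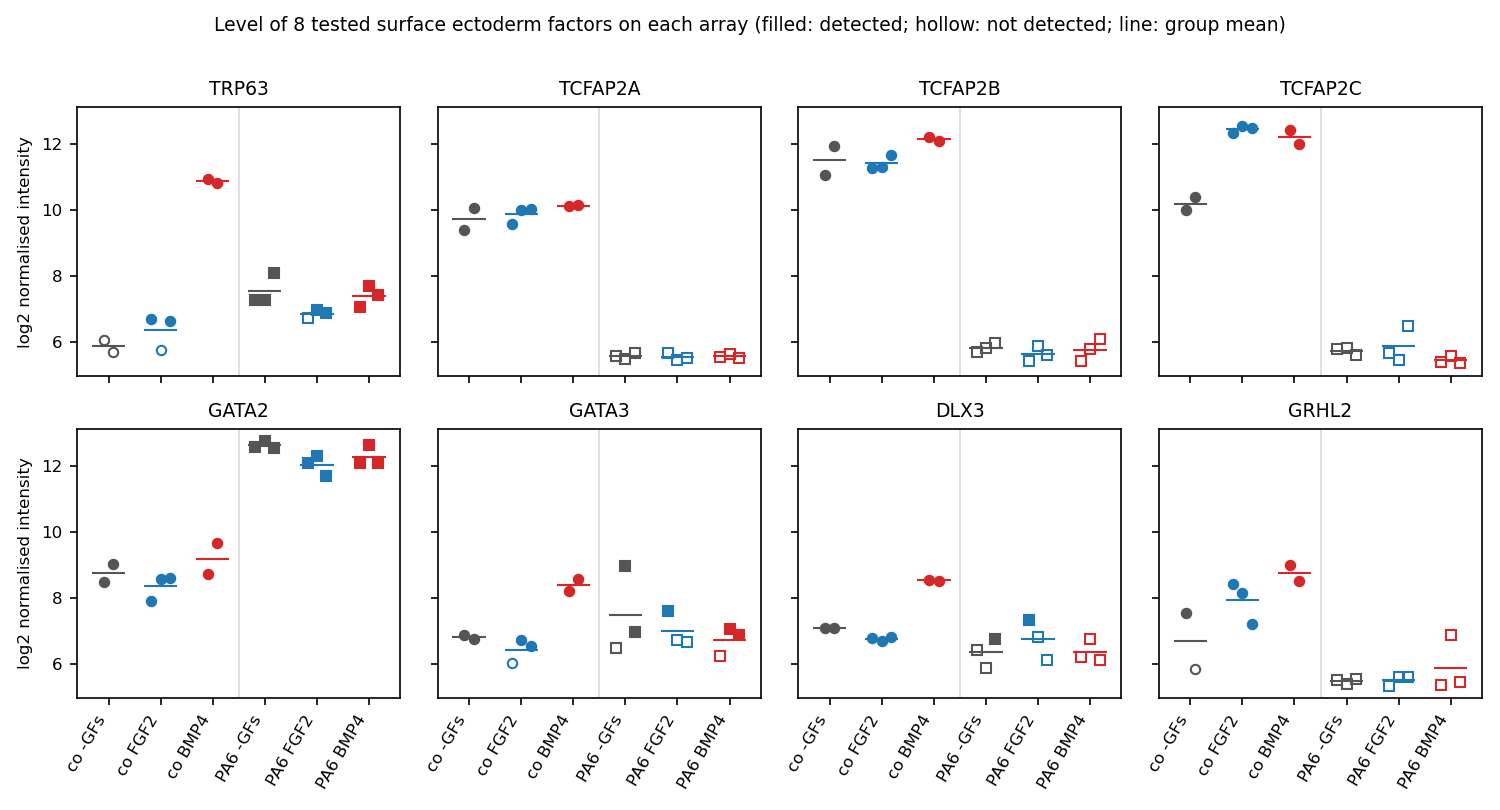
Level of each of the 8 tested genes on every array (y axis, log2 normalised intensity) by culture and factor (x axis; circles, ES/PA6 co-cultures; squares, PA6 mono-cultures; co, co-culture). Filled points are detected, hollow points are not, and lines are group means; TRP63 reached 10.95 and 10.81 with BMP4 in co-cultures alone, the AP-2 genes were undetected in PA6 cells at these probes, and GATA2 was highest in PA6 cells.

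Of the 8 genes tested, 4 were called in co-cultures with BMP4 against -GFs, all 4 higher, while 3.75% of all genes were called and 2.28% were called higher. The median change was 1.52 for the 8 genes and 0.00 for all genes, and 1.52 with TRP63 at its bound. The levels of 7 of the 8 genes did not overlap between the groups, against 46.1% of all genes. With FGF2 against -GFs, 1 of the 8 was called, against 7.42% of all genes, and the median change was 0.02, against -0.06 over all genes, and -0.04 with TRP63 set to no change for want of a bound. Levels of 3 of the 8 did not overlap there, against 39.7% of all genes. Between BMP4 and FGF2, 3 of the 8 were called, all higher with BMP4, where 1.44% of all genes were called and 0.755% called higher. The median was 0.82, against 0.04 over all genes, and 7 of the 8 did not overlap, against 31.4% of all genes. These comparisons share arrays, so their counts are not independent.

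**Figure D2:**
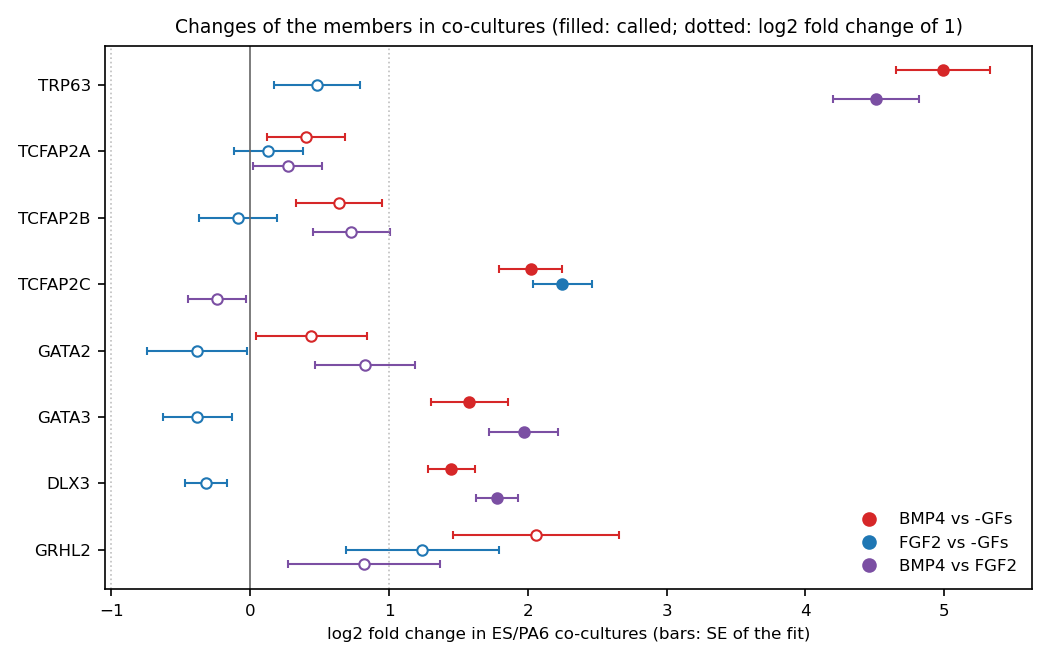
Log2 fold change (x axis) of the 8 tested genes (y axis) in co-cultures for BMP4 against -GFs, FGF2 against -GFs and BMP4 against FGF2. Points are fitted changes, bars the SE of the fit, those of TRP63 against -GFs being set against an undetected level, filled points were called and dotted lines mark a log2 fold change of 1; TRP63, GATA3 and DLX3 were called against both other conditions with BMP4, and TCFAP2C was called with either factor.

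The AP-2 genes encode transcription factors of early surface ectoderm and of neural crest, and TCFAP2C is also expressed in trophoblast and in germ cells. TCFAP2C differed from its relatives. Its probe ILMN_2783225 read 10.00 and 10.40 without growth factors, 12.33, 12.54 and 12.49 with FGF2, and 12.42 and 12.01 with BMP4. All 5 cultures with a factor lay above both cultures without one. The rise was 2.25 ± 0.21 with FGF2 (adjusted p = 0.00451, limma) and 2.02 ± 0.23 with BMP4 (adjusted p = 0.0130). BMP4 against FGF2 gave -0.24 ± 0.21 (adjusted p = 0.686), with overlapping levels. The probe ILMN_2783226 rose by 2.60 ± 0.24 with FGF2 (adjusted p = 0.00451 over all probes retained) and by 2.32 ± 0.27 with BMP4 (adjusted p = 0.0140). The third, ILMN_1231632, rose by 2.24 ± 0.49 with FGF2 (adjusted p = 0.0475) and gave 1.42 ± 0.53 with BMP4 (adjusted p = 0.291), so that 2 of the 3 probes were called with BMP4 and all 3 with FGF2.

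TCFAP2A and TCFAP2B were detected in every co-culture, and no factor gave a call for either. TCFAP2A (ILMN_2764846) read 9.40 and 10.08 without growth factors, 9.59, 10.01 and 10.03 with FGF2 and 10.12 and 10.16 with BMP4. Its changes were 0.40 ± 0.28 with BMP4 (adjusted p = 0.600) and 0.13 ± 0.25 with FGF2 (adjusted p = 0.811). TCFAP2B (ILMN_1223731) read 11.08 and 11.95 without growth factors, 11.29, 11.30 and 11.68 with FGF2 and 12.22 and 12.09 with BMP4. Both BMP4 arrays were above the other 5, but the difference was 0.64 ± 0.31 against -GFs (adjusted p = 0.402) and 0.73 ± 0.28 against FGF2 (adjusted p = 0.307), and neither was called. The other 5 probes of TCFAP2B gave 0.22 to 0.90 with BMP4 and -0.65 to -0.04 with FGF2 against -GFs, none of them called. For BMP4 against FGF2 those 5 probes gave 0.44 to 1.28, again with no call. The other retained TCFAP2A probes, ILMN_2726449 and ILMN_2913031, gave 0.41 and 0.72 with BMP4 against -GFs, -0.30 and 0.12 with FGF2 against -GFs, and 0.71 and 0.60 for BMP4 against FGF2, none called. These tests do not show that the levels were equal.

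**Figure D3:**
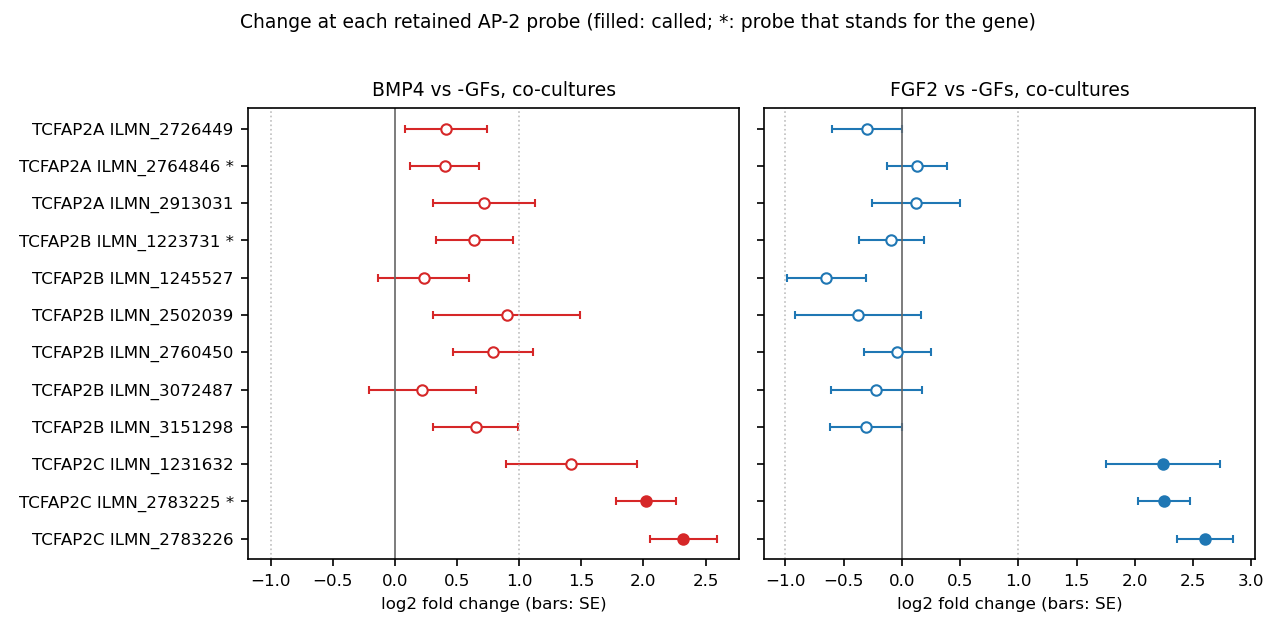
Log2 fold change (x axis, bars are SE) at each retained probe of the 3 AP-2 genes (y axis) in co-cultures, for BMP4 (left) and FGF2 (right) against -GFs. Filled points were called over all retained probes and asterisks mark the probe that stands for the gene; only TCFAP2C probes were called, 2 of 3 with BMP4 and 3 of 3 with FGF2.

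GATA3, a zinc finger factor of surface ectoderm, epidermis, trophoblast and T cells, rose with BMP4. The probe ILMN_1248843 read 8.22 and 8.56 with BMP4, 6.86 and 6.75 without growth factors, and 6.01, 6.73 and 6.53 with FGF2, the first of these undetected. Both BMP4 levels lay above all others in co-cultures. The change was 1.58 ± 0.28 against -GFs (adjusted p = 0.0410) and 1.97 ± 0.25 against FGF2 (adjusted p = 0.0353), where the FGF2 mean of 6.42 lay near the detection level. The call against -GFs was lost when any 1 of the 4 arrays compared was left out, at a change of 1.41 to 1.76 and an adjusted p of 0.129 to 0.146, and without BMP4 replicate 2 the change against FGF2 was 1.78 (adjusted p = 0.226). With the replicate number as a block the call against FGF2 was lost too (2.02, adjusted p = 0.145).

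DLX3, a homeobox gene needed for epidermal differentiation and placenta, behaved in the same direction at low level. The probe ILMN_2675833 read 8.53 and 8.52 with BMP4, 7.07 and 7.07 without growth factors and 6.78, 6.68 and 6.80 with FGF2, so the 3 groups were separate and each was tight. The rise was 1.45 ± 0.17 against -GFs (adjusted p = 0.0132) and 1.78 ± 0.15 against FGF2 (adjusted p = 0.00812). FGF2 against -GFs gave -0.32 ± 0.15 (adjusted p = 0.273). The call against FGF2 was lost with the replicate number as a block (1.80, adjusted p = 0.134), and that against -GFs without background correction (0.85, under the fold threshold). DLX5, its relative with early roles in ectoderm and placodes, was undetected everywhere, as stated above.

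GRHL2, a grainyhead-like factor that sustains epithelial junction genes, varied between replicates, with an SD of 1.21 over the 2 -GFs co-cultures. Its probe ILMN_1257070 read 7.54 and, undetected, 5.83 without growth factors, 8.42, 8.16 and 7.20 with FGF2 and 8.98 and 8.52 with BMP4. The BMP4 arrays were above all others, while FGF2 overlapped -GFs. The change was 2.06 ± 0.60 with BMP4 (adjusted p = 0.159) and 1.24 ± 0.55 with FGF2 (adjusted p = 0.237), and neither was called. Without -GFs replicate 1 the BMP4 change was 2.92 and called (adjusted p = 0.0852), and without -GFs replicate 2 it was 1.21 (adjusted p = 0.406). Under median scaling it was called with BMP4 (2.26, adjusted p = 0.000506) and with FGF2 (1.29, adjusted p = 0.0462).

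GATA2 acts in surface ectoderm and trophoblast, and also in blood, endothelium and stroma. In co-cultures the probe ILMN_2612283 read 8.47 and 9.03 without growth factors, 7.90, 8.58 and 8.61 with FGF2 and 8.72 and 9.66 with BMP4. The change with BMP4 against -GFs was 0.44 ± 0.40 (adjusted p = 0.710), with overlapping levels, and -0.03 without BMP4 replicate 2. With FGF2 it was -0.38 ± 0.36 (adjusted p = 0.590).

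The deposited columns stand in 3 runs that each begin with PA6 cells, and neighbouring columns may share processing that the sources used here do not name. Within run 3, which holds 1 co-culture of each kind, BMP4 exceeded -GFs by 5.11 for TRP63 (against an undetected level), 1.61 for TCFAP2C, 1.81 for GATA3, 1.45 for DLX3 and 2.68 for GRHL2 (likewise). Against FGF2 the differences within runs 2 and 3 were 5.19 (against an undetected level) and 4.18 for TRP63, 1.49 and 2.03 for GATA3 and 1.85 and 1.72 for DLX3. For TCFAP2C, FGF2 exceeded -GFs by 2.34 in run 1 and 2.09 in run 3.

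PA6 mono-cultures show which of these signals the stroma alone can give. TCFAP2A, TCFAP2B, TCFAP2C and GRHL2 were undetected on all 9 PA6 arrays at the probe that stands for each gene. Of the other TCFAP2B probes, ILMN_3072487 was detected on 1 PA6 array. Another TCFAP2A probe, ILMN_2726449, was detected on 5 PA6 arrays and 5 co-culture arrays and read 8.51, 8.54 and, undetected, 5.54 with FGF2 in PA6 cells. That probe disagreed with ILMN_2764846 and ILMN_2913031, which were detected on all 7 co-culture arrays and on no PA6 array. TRP63 was detected on 8 of 9 PA6 arrays, at 7.26, 7.28 and 8.08 without growth factors, 6.72 (undetected), 6.96 and 6.89 with FGF2 and 7.06, 7.70 and 7.43 with BMP4. All of these were below both co-cultures with BMP4.

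GATA2 was higher in stroma. It read 12.59, 12.75 and 12.56 in PA6 cells without growth factors, 12.08, 12.31 and 11.69 with FGF2 and 12.08, 12.64 and 12.08 with BMP4. Every one of these exceeded every co-culture. GATA3 was detected on 5 PA6 arrays and DLX3 on 2. GATA3 read 6.49, 8.97 and 6.96 without growth factors, so that 1 PA6 array, at 8.97, lay above both BMP4 co-cultures.

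Neither factor gave a call among these genes in PA6 cells. With BMP4 0 of 8 were called, as were 0% of all genes, and 1334 of 14829 genes had an unadjusted p under 0.05. With FGF2 0 of 8 were called, against 0.027% of all genes, and 1536 had an unadjusted p under 0.05. The largest FGF2 values in size were -0.60 ± 0.21 for GATA2 (adjusted p = 0.372, limma) and -0.68 ± 0.25 for TRP63 (adjusted p = 0.408).

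Fitted over all 16 arrays, the response to BMP4 differed between co-cultures and PA6 cells for 2 of the 8 genes, where 4.23% of all genes were called. The difference of the changes was 5.14 ± 0.44 for TRP63 (adjusted p = 3.84e-05), which rose in co-cultures and gave -0.14 ± 0.25 in PA6 cells. Its size is a fitted value, since the -GFs co-cultures were not above background. For TCFAP2C it was 2.31 ± 0.36 (adjusted p = 0.0031), with PA6 levels that were background on all arrays. GATA3 gave 2.35 ± 0.79 (adjusted p = 0.153) and DLX3 1.44 ± 0.45 (adjusted p = 0.120), so neither was called. DLX3 was called with an offset of 50 and without PA6 -GFs replicate 2, PA6 FGF2 replicate 1, PA6 FGF2 replicate 3 or PA6 BMP4 replicate 2, GATA3 without PA6 -GFs replicate 1, GRHL2 without co-culture -GFs replicate 1, and all 3 under median scaling. For FGF2 1 of the 8 was called, against 7.90% of all genes, again TCFAP2C (2.13 ± 0.34, adjusted p = 0.00249). TRP63 was not called (adjusted p = 0.116) except without co-culture FGF2 replicate 2.

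Co-cultures and PA6 cells were also set against each other under the same factor. These comparisons set ES-derived and stromal RNA against stromal RNA alone. Without growth factors 6 of the 8 genes were called, against 44.1% of all genes. TCFAP2A exceeded its PA6 level at least 8.30-fold, TCFAP2B at least 28.3-fold and TCFAP2C at least 11.4-fold (adjusted p = 8.53e-10, 6.44e-10 and 6.08e-09). GRHL2 was called higher (adjusted p = 0.0515), but no fold is given, since it was undetected in PA6 cells and its mean in co-cultures lay at the detection level. TRP63 was at least 2.00-fold lower (adjusted p = 0.000353) and GATA2 lower, with a log2 change of -3.88 ± 0.31 (adjusted p = 1.73e-07). The count ran from 4 to 7 over the alternatives: GRHL2 was lost without background correction, with an offset of 50, at an adjusted p under 0.05 and without co-culture -GFs replicate 1 or PA6 -GFs replicate 2, and TRP63 without background correction. GATA3 was gained without PA6 -GFs replicate 1 and DLX3 with no minimum fold. The stromal markers had a median change of -2.62 in this comparison, 10 of 13 being lower, and their part in the TRP63 and GATA2 differences was not tested. The median over the 8 genes was 0.97, and 0.36 with undetected genes at their bounds.

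With FGF2 5 of the 8 were called, against 46.4% of all genes, and with BMP4 all 8, against 42.4%. Without background correction the count with BMP4 was 7, GATA3 being lost. TCFAP2C exceeded its PA6 level at least 50.2-fold with FGF2 and at least 41.2-fold with BMP4 (adjusted p = 3.27e-11 and 1.20e-10). With BMP4 TRP63 turned from lower to higher in co-cultures, by 3.48 ± 0.31 (adjusted p = 5.22e-07), and GATA3 (1.68 ± 0.56, adjusted p = 0.0183), DLX3 (at least 3.20-fold, adjusted p = 4.68e-05) and GRHL2 (at least 3.73-fold, adjusted p = 0.000254) were called higher too. GATA2 remained lower, at -3.67 ± 0.28 with FGF2 (adjusted p = 7.32e-08) and -3.08 ± 0.31 with BMP4 (adjusted p = 1.78e-06), while the median stromal change was -2.32 and -1.56. The median over the 8 genes was 1.21 with FGF2 (0.57 with bounds) and 3.17 with BMP4 (2.59 with bounds).

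A list of 25 genes of epidermis and epithelium was followed in the same arrays. Of 21 tested, 14 were called higher and 0 lower with BMP4 against -GFs, with a median change of 2.18 (2.11 with undetected genes at their bounds), where the median of all genes was 0.00. KRT14, the keratin of basal epidermal cells, was at least 110-fold higher (adjusted p = 0.0174). KRT15, another basal keratin, rose by 6.25 ± 0.33 (adjusted p = 0.000741). This is a fitted value, as KRT15 was detected on 1 of 2 -GFs co-cultures, with a mean of 6.52. The ligand gene WNT6 was at least 18.8-fold higher (adjusted p = 0.000244). KRT5, the partner of KRT14, was not called (at least 1.15-fold, adjusted p = 0.265). The summed level of the 21 was 32100 to 50000 with BMP4, 4730 to 6330 without growth factors and 9180 to 10600 with FGF2. TACSTD1 (Epcam), PERP and PKP1 were undetected on all 16 arrays.

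With FGF2 5 of the 21 were called higher and 0 lower, with a median of 0.43 (0.00 with bounds). They were CDH1 (2.37 ± 0.37, adjusted p = 0.0169), ITGB4 (2.13 ± 0.60, adjusted p = 0.0879), LAMA3 (at least 2.20-fold, adjusted p = 0.00476), CLDN4 (1.93 ± 0.27, adjusted p = 0.0111) and CDH3 (at least 2.03-fold, adjusted p = 0.0404), which encode adhesion, hemidesmosome, laminin and tight junction proteins and were named after their values were seen. Between BMP4 and FGF2, 12 were called higher and 0 lower, with a median of 1.69. Among them were KRT15 (6.71 ± 0.30, adjusted p = 0.000236) and KRT14 (6.54 ± 0.85, adjusted p = 0.0370). KRT15 was detected on 1 of 3 FGF2 co-cultures (mean 6.06) and KRT14 on 2 (mean 6.77), so these are fitted values and not folds. None of the 21 was called in PA6 cells with either factor, where medians were 0.00.

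**Figure D4:**
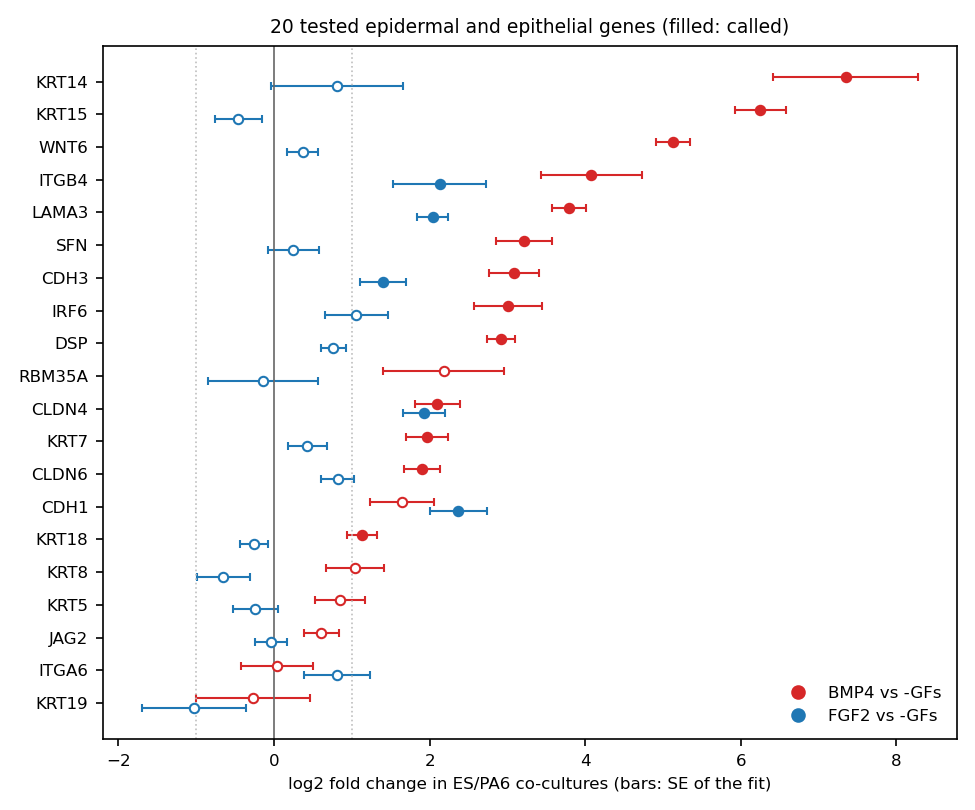
Log2 fold change (x axis, bars are SE of the fit) in co-cultures of 20 of the 21 tested epidermal and epithelial genes (y axis, ordered by the change with BMP4) for BMP4 and FGF2 against -GFs. Filled points were called and dotted lines mark a log2 fold change of 1 in size; a change against an undetected level is a fitted value and not a fold, and 13 of the genes shown were called with BMP4, led by KRT14 and KRT15, and 5 with FGF2, led by CDH1.

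Known targets of BMP signalling numbered 17 on the array. Of 9 tested, 2 were called higher with BMP4 against -GFs and 0 lower, namely the T-box gene TBX3 (2.38 ± 0.55, adjusted p = 0.0895) and the inhibitor of differentiation ID3 (1.33 ± 0.29, adjusted p = 0.0755), with a median of 0.40 against 0.00 over all genes. ID4 and ID2 had lower means with BMP4 (9.34 and 10.64) than without growth factors (10.29 and 11.17), neither called. TBX3 was also called with FGF2 (3.40 ± 0.50, adjusted p = 0.0135). For BMP4 against FGF2, 1 of the 9 was called higher and 0 lower. The homeobox gene MSX1 gave 2.36 ± 0.54 there (adjusted p = 0.123), uncalled. MSX2, SMAD7, BAMBI, HAND1 and HAND2 were undetected on all arrays. RNA was taken 4 days after the factors had been withdrawn.

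Among 6 tested relatives of the same gene families, 0 were called with BMP4 against -GFs, at a median of 0.79, where GRHL3 gave 1.08 ± 0.38 (adjusted p = 0.241), GRHL1 at least 1.53-fold (adjusted p = 0.195) and OVOL2 0.93 ± 0.21 (adjusted p = 0.0854, under the fold threshold). With FGF2 GRHL3, a grainyhead-like factor of epidermal barrier formation, was called (1.20 ± 0.34, adjusted p = 0.0937). TRP73, TCFAP2D and DLX4 were undetected on all arrays.

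Several of these factors are also expressed outside surface ectoderm, so markers of those lineages are given for the same arrays. Of 16 trophoblast markers on the array 3 were tested and 0 called with BMP4 against -GFs, with values of 1.61 ± 0.73 for RHOX6 (adjusted p = 0.371) and 1.40 ± 0.49 for RHOX9 (adjusted p = 0.233), the latter being the median. Their summed level was 2610 to 5780 with BMP4, 1320 to 1580 without growth factors and 2090 to 3680 with FGF2, and ELF5, TPBPA, GCM1, ESX1, HAND1 and CTSQ were undetected on all arrays. With FGF2 against -GFs 1 of the 3 trophoblast markers was called higher, PHLDA2 (mean 10.52 against 8.52). Of 7 neural crest markers tested, 3 were higher, SNAI2 (2.16 ± 0.19, adjusted p = 0.00653), TWIST1 (1.13 ± 0.23, adjusted p = 0.0610) and ETS1 (1.01 ± 0.24, adjusted p = 0.0905), and EDNRB was lower (-1.13 ± 0.27, adjusted p = 0.0946), with a median of -0.63. The crest sum was 10200 to 14100 with BMP4 and 17100 to 22300 without growth factors. It follows mainly EDNRB, the brightest of these markers in co-cultures, with means of 12.97 with BMP4 and 14.10 without growth factors. FOXD3, PAX7, TCFEC, MITF and ERBB3 were undetected throughout.

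Of 8 neural plate and early neural factors, HES5 was called lower with BMP4 (-1.38 ± 0.19, adjusted p = 0.0228) and 0 higher, with a median of -0.34. Their sum was 8400 to 9010 with BMP4 and 11600 to 12200 without growth factors. HES5 was the brightest of them without growth factors (mean 12.64, and 11.25 with BMP4), so the sum leaned on it. ZIC1 had a higher mean with BMP4 (11.66 against 10.82), uncalled. Of 5 blood markers 0 were called with BMP4, at a median of 0.54, with LAPTM5 at 2.04 ± 0.64 (adjusted p = 0.188) and TAL1, SFPI1, HBA-X and HBA-A1 undetected on all arrays. With FGF2 against -GFs 1 of the 5 was called higher, LAPTM5 (mean 11.97 against 7.86). Of 6 endothelial markers 3 were called higher with BMP4, PECAM1 (1.98 ± 0.46, adjusted p = 0.0880), TEK (at least 3.28-fold, adjusted p = 0.0260) and SOX17 (at least 2.43-fold, adjusted p = 0.0109), with a median of 1.98. The endothelial sum was 1920 to 2430 with BMP4, 2110 to 3660 with FGF2 and 472 to 577 without growth factors.

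Of 4 bone-lineage markers 2 were called higher with BMP4, AKP2 (1.68 ± 0.33, adjusted p = 0.0545) and SPP1 (1.58 ± 0.26, adjusted p = 0.0342), with a median of 0.90. Of 12 pluripotency markers 5 were called higher with BMP4 (NANOG, ZFP42, ESRRB, KLF4 and TBX3, median 1.23) and 10 with FGF2. Their sum was 71900 to 90800 with BMP4, 118000 to 133000 with FGF2 and 40900 to 46100 without growth factors. LIN28 went the other way, with means of 8.15 with BMP4, 8.45 with FGF2 and 10.02 without growth factors, uncalled. KLF4 and TBX3 were also detected in PA6 cells alone, at means of 10.63 and 8.83 without growth factors. Of 13 stromal markers 0 were called, at a median of 0.23. Of 6 adipocyte markers 0 were called, at a median of 2.05, with ADIPOQ at 2.91 ± 1.44 (adjusted p = 0.415) and FABP4 undetected, and their sum was 3120 to 19400 with BMP4 and 1850 to 4200 without growth factors. The part of these cell types in the changes of the surface ectoderm factors was not tested.

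The likeness of profiles was described by the Pearson correlation of log2 levels over the 16 arrays, which holds both the culture and the factor. The genes most like TRP63 were KREMEN2 (0.926), AMTN (0.919) and ADH6B (0.905). GRHL2 was most like DSG2 (0.945), a desmosomal cadherin, ZFP750 (0.938) and RIPK4 (0.937), and DLX3 most like the connexin gene GJB2 (0.922). TCFAP2C followed FBXO15 (0.998), FMR1NB (0.996) and KIT (0.994), and TCFAP2A and TCFAP2B shared 1810013D10RIK (0.997 and 0.996). GATA2 was most like RBMS3 (0.996), and GATA3 had no close match, PLAG1 being highest (0.779).

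Among themselves, TCFAP2A and TCFAP2B ranked within the top 1% of all genes for each other (0.996), and TRP63 had GATA3 and DLX3 in its top 1% (0.679 for DLX3 and 0.618 for GATA3). GATA2 ran opposite to the AP-2 genes, from -0.960 with TCFAP2A to -0.954 with TCFAP2B. The co-culture and PA6 arrays differ at many genes and share 1 normalisation, so these values are given as a description with no p.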

How the data were processed

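RNA from 16 cultures had been hybridised to Illumina MouseWG-6 v2.0 BeadChips, 1 array per culture. The authors deposited an average bead intensity per probe and array that was not normalised between arrays, with a detection p-value from the deposited header, exported with GenomeStudio 2011.01 per the submitters' processing notes. The authors' own comparisons used cubic spline normalised values, which were left aside. The deposited file listed 45281 probes with 30854 distinct target names. The build behind the probes is not given in the sources used here.

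Intensities were background corrected by normexp from the detection p-values, given an offset of 16, quantile normalised over 16 arrays and put on the log2 scale (limma 3.58.1, R 4.3.3). The detection filter left 20880 probes, 17 of them among the 22 probes of the 10 genes. For genes with several probes the one with the highest mean level stood for the gene, giving 14829 genes. Co-culture contrasts were fitted to 7 arrays, PA6 contrasts to 9 and all others to 16, with lmFit and eBayes and no block, at the study's own thresholds. The offset compresses changes of dim probes, while background correction made those of GATA3, DLX3 and GRHL2 with BMP4 larger than without it. The groups were taken from the sample labels, and all 16 arrays were used.

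The genes and the 13 marker lists were chosen with earlier results of these data known. The list of placode factors and 1 epidermal gene by name are not reported here. Genes named from lists are the 2 to 4 with the largest change in a comparison, apart from those said to be named after their values were seen and those named where a count was 5 or fewer. For likeness, the 3 genes with the highest correlation were taken, of which some are given. All fits were first tested on simulated arrays that carried known changes. Alternatives covered scaling, background, offset, detection filter, choice of probe, variance prior, thresholds, a block, the arrays in the fit and leaving out each array.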

Additional observations from a re-analysis of the deposited data

Results flagged for a closer look

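The effect of a factor differed between co-cultures and PA6 mono-cultures by an interaction test for 2 genes. For TRP63 the BMP4 effect was 5.14 higher on the log2 scale in co-cultures (SE 0.44, adjusted p = 3.84e-05, limma over 14829 genes), a fitted value, as the -GFs co-cultures were undetected. For TCFAP2C the BMP4 effect was 2.31 higher (SE 0.36, adjusted p = 0.0031) and the FGF2 effect 2.13 higher (SE 0.34, adjusted p = 0.00249) in co-cultures, with PA6 levels at background on all 9 arrays. Groups of 2 or 3 arrays were too small for a test of single outlying arrays.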

How the results depend on the processing

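TRP63 was called with BMP4 against -GFs under all 11 alternatives run for it (fitted log2 changes of 3.44 to 5.35) and without each of 7 arrays (4.80 to 5.19), and TCFAP2C with FGF2 under all 13 run for it (2.01 to 2.60) and without each array (2.06 to 2.45). The number of the genes called with BMP4 against -GFs ranged from 3 to 5 over 14 alternatives and from 3 to 4 over arrays left out. With FGF2 against -GFs it rose from 1 to 2 (GRHL2) under median scaling and with a block of column runs. For the difference in BMP4 effect between cultures it rose from 2 to 5 under median scaling, and for that in FGF2 effect it was 1 to 2 over arrays left out, 2 without co-culture FGF2 replicate 2.

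Replicate numbers were not taken to pair the cultures, since deviations of same-numbered co-cultures correlated at -0.199 to 0.283 and not every pair of PA6 arrays passed 0.1. As a hint from the data, same-numbered PA6 arrays correlated at 0.0697 to 0.199 and differently numbered ones at -0.136 to -0.0122, and co-cultures at 0.0976 to 0.283 within a run of columns and -0.283 to 0.0976 between runs. With the replicate number as a block, the count for BMP4 against FGF2 fell from 3 to 1, losing DLX3 and GATA3, and GATA3 against -GFs was 1.58 (adjusted p = 0.104). All genes called were then 258, against 556, for BMP4 against -GFs and 11, against 214, for BMP4 against FGF2. With the runs as a block the count for BMP4 against FGF2 rose to 4 (GRHL2, 1.15, adjusted p = 0.0958). Leaving out an array gave 101 (BMP4 replicate 1) to 547 for BMP4 against -GFs, 40 (BMP4 replicate 2) to 186 for BMP4 against FGF2 and, against 1100, 394 (-GFs replicate 1) to 1077 for FGF2 against -GFs. Other counts beyond 1.5 times among co-cultures were 282 (adjusted p under 0.05, and no detection filter), 854 (median scaling) and 870 (1 fit) for BMP4 against -GFs, 631 (no background correction) and 1675 (no minimum fold) for FGF2 against -GFs, and 63 (adjusted p under 0.05), 68 (no detection filter), 125 (detected on 2 arrays), 494 (median scaling), 560 (runs as a block) and 574 (1 fit) for BMP4 against FGF2. Elsewhere they were 742 (median scaling) and 746 (no background correction), against 1172, for the difference in FGF2 effect, 396 (without co-culture BMP4 replicate 1), against 628, for that in BMP4 effect, 10123, 10860 and 9981 (no minimum fold), against 6540, 6874 and 6283, for co-cultures against PA6 cells without factors, with FGF2 and with BMP4, and, in PA6 cells, up to 32 against 4 with FGF2 and up to 6 against 0 with BMP4 (both in 1 fit).

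GATA3 against -GFs was also lost without background correction (0.89), with the runs as a block (1.42, adjusted p = 0.117) and with 16 arrays in 1 fit (adjusted p = 0.182). GRHL2 gained its BMP4 call also without background correction (1.22), with an intensity trend (adjusted p = 0.0905), with the runs as a block (2.35) and in 1 fit (adjusted p = 0.0445).

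Uncalled changes turned sign for TCFAP2A with FGF2 (-0.04 under median scaling, -0.02 for the mean of its probes, -0.30 at probe ILMN_2726449, -0.21 to 0.47 over arrays left out), TCFAP2B with FGF2 (-0.53 to 0.34 over arrays left out), TCFAP2C for BMP4 against FGF2 (0.06 under median scaling) and GATA2 with BMP4 (-0.03 to 0.92 over arrays left out). Median scaling moved the median of all genes from -0.06 to -0.21 for FGF2 against -GFs, from 0.04 to 0.29 for BMP4 against FGF2 and from 0.00 to 0.24 for the difference in BMP4 effect, and the share of calls that were higher from 52.3 to 63.6%, for BMP4 against FGF2, and from 61.6 to 77.4% and 62.3 to 75.1% for the differences in BMP4 and FGF2 effect. That share also ran from 41.9 (without -GFs replicate 1) to 86.1% (without BMP4 replicate 1), against 60.8%, for BMP4 against -GFs, and from 38.4 (runs as a block) to 87.5% (without BMP4 replicate 2) for BMP4 against FGF2. The causes were not tested.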
